A study of Arabidopsis thaliana with 24 samples.

Results

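The npr1-3 mutant of Arabidopsis thaliana, sprayed with the synthetic defence elicitor DCA (3,5-dichloroanthranilic acid) or with mock solution, was compared at 48 h on 6 of the 24 ATH1 arrays of the study: the 3 arrays titled for npr1-3 with DCA and the 3 titled for npr1-3 with mock. All plants were in the Col-0 background, grown on soil with 14 h of light and 10 h of darkness at 21 °C, and 2 weeks old when their aerial parts were sprayed. DCA was applied at 100 µM, the mock solution held 0.002% DMSO in water, and whole aerial tissue of seedlings was harvested 48 h later. Wild-type Col-0 plants with DCA and with mock at 48 h (3 arrays each) served as the comparison, and Col-0 plants given 100 µM INA (2,6-dichloroisonicotinic acid) or DCA for 48 h or 6 d gave further values. The labels call the 3 replicates of each group independent and biological, and they give 1 mutant allele, so a trait of this seed line other than the NPR1 mutation cannot be told apart from it.

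NPR1 is a receptor for salicylic acid (SA) and the coactivator through which TGA transcription factors switch on most SA-responsive genes, among them those of systemic acquired resistance, the state of heightened defence in leaves away from an infection. npr1-3 is a loss-of-function allele. Chemicals such as DCA and INA mimic parts of this response, and treating npr1-3 asks which transcripts an elicitor can still move when NPR1 does not work.

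Values are linear hybridisation signals per probe set, scaled by the authors to a trimmed mean of 500.1 on each array, and changes are differences of mean log2 signals, DCA minus mock. The median signal of the 6 npr1-3 arrays lay between 115.1 and 134.4. With 3 arrays a group, the 95% interval of a change reached 0.59 log2 units to either side in the median probe set, which bounds what could be called. It rests on a spread shared by all 24 arrays, as do the SEs and adjusted p-values unless stated, and was equally wide for Col-0. It does not measure the spread of the 6 npr1-3 arrays themselves. LHCB4.1, a light-harvesting protein gene that marks green tissue, was among the brightest, at 31783, 47469 and 36327 in mock replicates 1, 2 and 3 and 37428, 37033 and 40806 with DCA. The root-hair expansin genes EXPA7 and EXPA18 were too dim on average to be tested. EXPA7 lay between 16.2 and 66.8, and EXPA18 had 105, 100 and 89.4 with mock and 54.8, 23.6 and 30.5 with DCA. FMA, a guard cell regulator, had similar signals with mock (113 to 208) and with DCA (112 to 218). The probe set of NPR1 is unnamed in the annotation used, so the mutated gene itself gave no check of the labels. In whole tissue, fewer cells of a type and less RNA per cell cannot be told apart.

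In the fit to all arrays of the study, DCA raised a small set of transcripts in npr1-3. The named ones included a receptor kinase, receptor-like cytoplasmic kinases, the calmodulin-like gene CaBP22 and an ankyrin-repeat gene of the SA response. Of 13648 probe sets, limma called 44 at an adjusted p under 0.05 (0.322%), 43 higher (0.315%) and 1 lower (0.00733%), with 37 of the rises and the fall at least 2-fold. At an unadjusted p under 0.05, 790 were higher and 285 lower. The replicate numbers pair these arrays in replicates 1 and 2, and only weakly in replicate 3. With the numbers as a block 104 were called (0.762%), 92 higher (0.674%) and 12 lower (0.0879%), all 44 among them. Without the block, the fit to the arrays compared alone called 0 (lowest limma adjusted p 0.682, 659 at an unadjusted p under 0.05). The fit to the 12 arrays of DCA and mock at 48 h called 5, all higher. The annotation gives a single gene for 17 of the 44, all of them raised. For the 12 of these in the signal plot, DCA and mock arrays without overlap were a condition of choice, so their separation is no further result.

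The kinases come first, since receptor kinases sense microbes and damage at the cell surface and receptor-like cytoplasmic kinases relay their signals. AT5G47070, a receptor-like cytoplasmic kinase of the PBS1-like family that relays signals from such receptors, had signals of 96.4, 129 and 136 in mock replicates 1, 2 and 3 and 286, 291 and 304 with DCA. The gene changed by 1.3 ± 0.17 (log2, SE, limma adjusted p 0.0014), a rise of 2.46-fold. It was the one named gene that kept its call in every fit that left out 1 of the 6 arrays (highest adjusted p 0.0191). AT5G25440, another receptor-like cytoplasmic kinase, went from 120, 66.7 and 90.2 to 316, 246 and 293. It changed by 1.66 ± 0.28 (limma adjusted p 0.0121), although 3 of the 6 fits without an array lost the call (up to 0.0858).

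AT5G39020, a receptor kinase with a malectin-like outer domain, rose 2.21-fold, from 75.1, 70.2 and 77.6 to 149, 174 and 171 (limma adjusted p 0.0129). Its mock arrays agreed closely. AT2G40270, a protein kinase family gene outside the kinase list, rose 1.93-fold, from 214, 339 and 274 to 427, 605 and 550 (limma adjusted p 0.0479). The paired differences were even, 0.998, 0.834 and 1.004 in pairs 1, 2 and 3, and the adjusted p with the block was 0.00775. Both calls were lost in 4 and 5 of the fits without an array.

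In the list of receptor-like and receptor-like cytoplasmic kinases, 3 of 25 tested members were called higher and 0 lower, against 0.315% and 0.00733% of all probe sets. Of the 25, 23 had a positive change, with a median of 0.75 against 0.08 over all probe sets. Arrays with DCA were above those with mock without overlap in 11, against 6.94% of all probe sets. In Col-0, 10 of the same 25 were called higher (1.98% of all probe sets) and the median was 1.03. This list was chosen with earlier results of these data known, so its counts and direction are a description. AT4G08850 (MIK2, a leucine-rich repeat receptor kinase for phytocytokine peptides) had signals of 240, 278 and 329 with mock and 509, 643 and 487 with DCA in npr1-3. Its groups did not overlap, but the change of 0.95 missed the threshold (adjusted p 0.0885).

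SA-response genes were next. CaBP22 (AT2G41090), a calmodulin-like gene that responds to SA, had signals of 2201, 3589 and 2530 with mock and 5617, 11411 and 9318 with DCA. It rose by 1.63 ± 0.30 (log2, SE, limma adjusted p 0.0144). The call was lost without DCA replicate 2, DCA replicate 3 or mock replicate 3 (limma adjusted p 0.106, 0.0933 and 0.084). AT1G10340, an ankyrin-repeat gene, went from 174, 59.4 and 114 to 377, 304 and 342. Mock replicate 2 was the lowest, and the rise of 1.69 ± 0.36 just passed (limma adjusted p 0.0479, or 0.00984 with the block) and was lost in 5 of the 6 fits without an array.

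AT5G03350, a legume-lectin-like gene induced by SA, shows how the replicate numbers act. Its signals were 787, 2696 and 1914 with mock and 2220, 8330 and 5267 with DCA. The groups overlap, since replicate 1 was low in both, but the paired differences were 1.497, 1.63 and 1.46. Its adjusted p was 0.323 in limma without the block and 0.00303 with it. GRX480, a glutaredoxin that binds TGA factors, had 155, 237 and 289 with mock and 255, 1076 and 537 with DCA. DCA replicate 1 lay among the mock arrays, and the change of 1.27 ± 0.66 was not called (adjusted p 0.689, block-adjusted 0.212), except with the block in a fit to the 6 npr1-3 arrays alone (limma adjusted p 0.0411).

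Without replicate 1 of every group, GRX480 was called (1.54, limma adjusted p 0.0322). SARD4, a reductase of pipecolic acid synthesis, a pathway needed for systemic acquired resistance, had 118, 107 and 106 with mock and 161, 393 and 195 with DCA. These groups did not overlap, yet the change of 1.07 was not called (adjusted p 0.524), though it was without replicate 1 of every group (1.38, limma adjusted p 0.0478). AT3G51330, an aspartyl protease family gene, changed by 1.78 from dim mock signals of 31.4, 19.6 and 47.4 (adjusted p 0.323).

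Of the 7 measured members of the SA response list, 2 were called higher in npr1-3 (0.315% of all probe sets), 3 with the block (0.674%), and 0 lower. All 7 had a positive change, from 0.84 to 1.78 with a median of 1.53. The list was partly drawn from genes already known to respond in these data, so its direction is a description. In Col-0, 5 of the 7 were called higher (1.98% of all) and the median was 2.13. Of the 2 measured members of the SA synthesis and EDS1 list, AT3G48080 (an EDS1 paralog of basal defence) changed by 1.14 and SAG101 (a lipase-like partner of EDS1) by -0.07, neither called in npr1-3 (adjusted p 0.395 and 0.976).

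**Figure D1:**
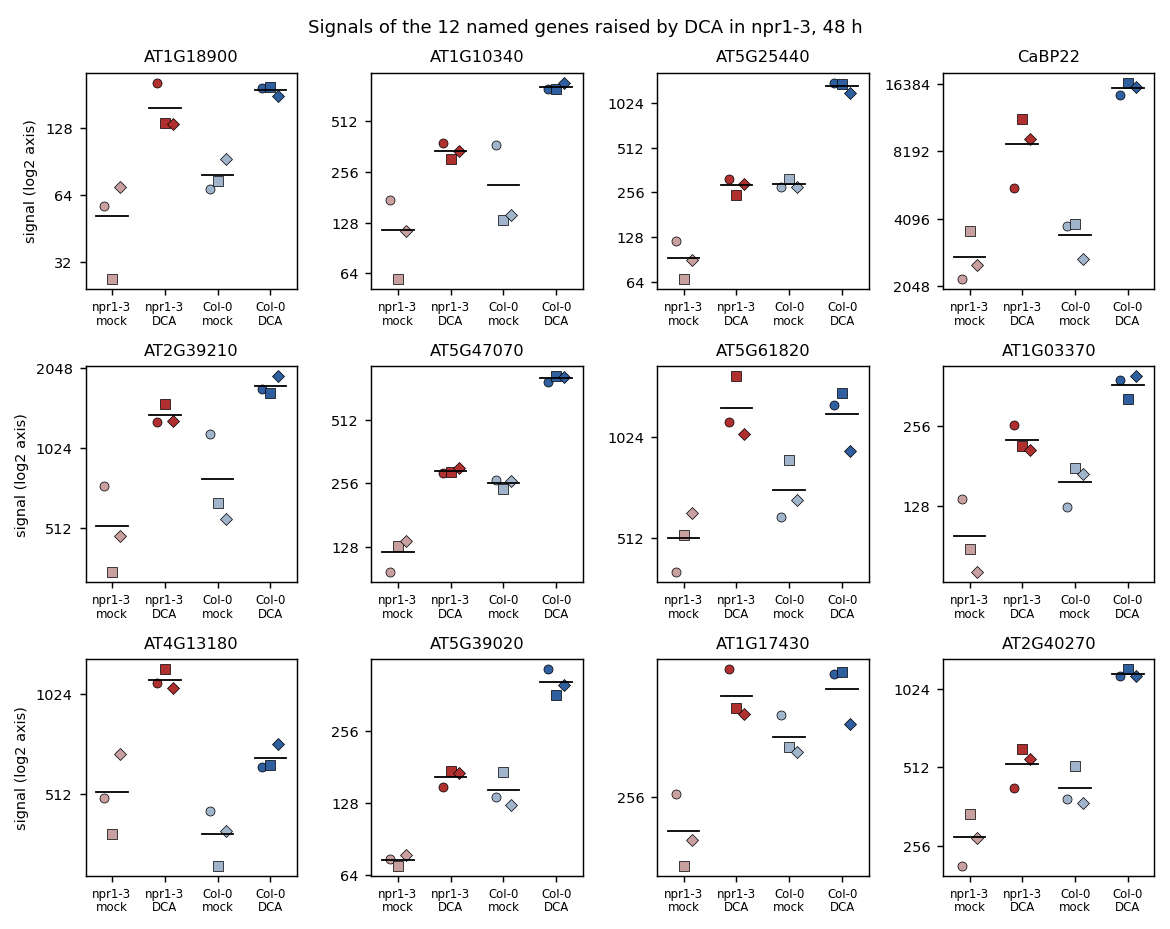
Signals of 12 named genes raised by DCA in npr1-3 (log2 axis), by genotype and treatment at 48 h. Circles, squares and diamonds are replicates 1, 2 and 3, and bars are arithmetic means of 3 arrays. The 12 genes were chosen so that every npr1-3 DCA array lies above every npr1-3 mock array. AT5G25440 and AT5G47070 with DCA in npr1-3 lie near the Col-0 mock level.

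Genes of transport and metabolism made up part of the rest. AT2G39210, a transporter of the major facilitator family, went from 738, 350 and 479 to 1289, 1501 and 1296, a rise of 2.73-fold (limma adjusted p 0.0412). Its call was lost in most fits without an array (up to 0.268, without mock replicate 2). AT4G13180, a short-chain dehydrogenase/reductase, had 498, 386 and 675 with mock and 1107, 1214 and 1068 with DCA, a rise of 2.23-fold (limma adjusted p 0.0144). It stood apart by level too: with DCA it was higher in npr1-3 than in Col-0 (618, 623 and 726), by 0.79 (limma adjusted p 0.0178). It was the 1 called higher of 23 measured reductases of aldehydes and ketones (0.315% of all probe sets), whose median change was 0.09.

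AT1G17430, an alpha/beta hydrolase, rose from 260, 182 and 207 to 486, 400 and 388, 1.97-fold (limma adjusted p 0.0329). AT5G61820 rose 2.43-fold, from 405, 523 and 607 to 1135, 1551 and 1046 (limma adjusted p 0.0412), and its call was lost in all 6 fits without an array (up to 0.2). Arrays without overlap were a condition for choosing both genes. AT5G44820, a nucleotide-sugar transferase family gene, rose 3.11-fold from dim mock signals of 66.6, 38.6 and 28.4 to 128, 161 and 106 (limma adjusted p 0.0121).

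AT1G18900, a pentatricopeptide repeat protein of the kind that processes organelle RNA, showed the largest fold of the 12 genes in the signal plot. Its signals were 57.2, 26.8 and 69.4 with mock and 204, 134 and 133 with DCA, a rise of 3.25-fold (limma adjusted p 0.0121). Mock replicate 2 was the lowest array here as well. AT1G03370, which has C2 and GRAM lipid-binding domains, rose 2.38-fold, from 136, 88.4 and 71.9 to 260, 215 and 209 (limma adjusted p 0.0202).

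The remaining called genes were dim or were not among the 12 largest rises, and were singled out after their values were seen. AT5G35570, an O-fucosyltransferase family gene, changed by 2.38 from mock signals of 10.2, 41.9 and 21.5 to 132, 66.1 and 148 (limma adjusted p 0.0144), and AT3G48640 by 1.86 from 18.4, 11.7 and 17.9 to 39.0, 104 and 45.3 (0.0395). Mock signals of both lay under the filter signal of 74.2. AT1G74440 and AT4G17720, an RNA-recognition-motif gene, rose least, by 0.83 each (limma adjusted p 0.0262 and 0.0479).

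Of the called probe sets without a single gene in the annotation, 2 rises and the fall are given by their identifiers. 265837_at had 294, 167 and 153 with mock and 662, 5595 and 1998 with DCA, the largest rise of all, at 3.31 ± 0.56 (limma adjusted p 0.0121). The groups did not overlap, but the DCA arrays spanned a wide range, with replicate 1 the lowest. 256589_at went from 253, 83.6 and 268 to 1515, 1387 and 1205 (2.94 ± 0.50, limma adjusted p 0.0121). In Col-0 it stayed between 95.9 and 163 with mock and between 139 and 165 with DCA (0.27, adjusted p 0.835), but the difference between the genotypes, 2.66 (95% interval 1.2 to 4.13), was not called (adjusted p 0.877).

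DCA lowered 1 probe set in npr1-3, 247189_at, from 4134, 4934 and 4878 to 2457, 1762 and 2090 (-1.15 ± 0.24, limma adjusted p 0.0447). It was also lower in Col-0 (-0.94, adjusted p 0.044). THI2.2, a thionin with antimicrobial action, had 4994, 10188 and 7386 with mock and 3484, 2012 and 2609 with DCA. The groups did not overlap, as in 3.95% of all probe sets on the lower side, and the change of -1.45 ± 0.34 missed the threshold without the block and passed with it (limma adjusted p 0.0885 and 0.026), and without mock replicate 1 (0.0386).

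AT1G72230, a cupredoxin family gene, had 668, 1977 and 1193 with mock and 327, 454 and 513 with DCA (-1.46, adjusted p 0.314, with the block 0.0385). Mock replicate 2 was the highest array for both genes. AT4G38050, a xanthine/uracil permease family gene, changed by -0.93 (adjusted p 0.181, with the block 0.114), with 167, 169 and 129 against 86.1, 73.0 and 83.6. PRA1.F1, a prenylated Rab acceptor of vesicle traffic, changed by -0.67, AT1G70780 by -0.66 and AT1G01840 by -0.86, with adjusted p-values of 0.193, 0.252 and 0.325 (with the block 0.0664, 0.0515 and 0.128). AT1G70780 was called without mock replicate 1 (-0.85, limma adjusted p 0.0475).

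Pairing added further genes, of which these had a single gene in the annotation and were picked for their block value. AT3G22240 had 3480, 8516 and 10110 with mock and 9663, 25708 and 19108 with DCA, and each DCA array was above its own mock array (1.33, block-adjusted p 0.0083, unblocked 0.196). AT4G19880, a glutathione transferase family gene, had 780, 484 and 669 with mock and 1581, 985 and 1184 with DCA (0.96, block-adjusted p 0.00426, unblocked 0.0918). AT4G01610, a cathepsin B-like protease linked to defence and cell death, went from 1268, 1126 and 990 to 2428, 2240 and 2016 (0.98, block-adjusted p 0.0267, unblocked 0.116). In these the paired differences ran from 0.82 to 1.59; all 3 differences were positive in 25.6% of all probe sets and negative in 15%.

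CYP71B23, a cytochrome P450, had 165, 93.8 and 98.1 with mock and 273, 471 and 315 with DCA (1.58, adjusted p 0.145, block-adjusted 0.038). Of the 11 measured P450s, 0 were called without the block and 1 higher with it (0.674% of all probe sets), and their median was 0.23. Among the block-called falls, AT1G60060, a WNK-related kinase gene, had 91.4, 68.3 and 101 with mock and 43.8, 24.2 and 35.3 with DCA (-1.36, adjusted p 0.0638, block-adjusted 0.0195 over 24 arrays and 0.169 over 6). TET2, a tetraspanin, had 162, 509 and 396 against 102, 282 and 185 (-0.87, block-adjusted p 0.0472 over 24 arrays and 0.0527 over 6, unblocked 0.564).

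Other pathways showed few or no calls, in lists that were also chosen with earlier results of these data known. Of 40 measured NLR (nucleotide-binding leucine-rich repeat) immune receptor loci, 0 were called in npr1-3 (0.315% of all probe sets were called higher), 29 had a positive change, as 60.8% of all probe sets did, and the median was 0.32. In Col-0, 11 of these 40 were called higher (1.98% of all) and the median was 0.62. Of 11 ankyrin-repeat genes 1 was called higher, AT1G10340 (0.315% of all), with a median of 0.38 against 0.74 in Col-0. Of 19 EF-hand calcium sensors 1 was called higher, CaBP22 (0.315% of all), and 14 had a negative change, with a median of -0.14 against 0.56 in Col-0.

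Jasmonate and ethylene defence genes, which often oppose SA responses, had negative changes in npr1-3: the 4 measured had a median of -0.94 and 0 calls. With the block 1 was called lower, THI2.2 (0.0879% of all probe sets). In Col-0 the median of the 4 was 0.66, with 2 positive and 2 negative. A link to the SA response was not tested. Of the 4, the plant defensin PDF1.2 had 665, 252 and 541 with mock and 126, 442 and 251 with DCA, groups that overlap (-0.90, adjusted p 0.909). In Col-0 it had a mean difference of 2.25, also not called (0.342). PDF1.2b changed by -0.99 in npr1-3 and 1.80 in Col-0, neither called (limma adjusted p 0.919 and 0.574). The 3 measured genes of chemical detoxification had positive changes and 0 calls: AER (an alkenal reductase) 0.70, AT4G01870 0.93 and UGT73B1 (a glycosyltransferase) 1.34, against 0.23, -0.41 and -0.08 in Col-0 (adjusted p 0.174, 0.814 and 0.395 in npr1-3). AT4G01870 had a block-adjusted p of 0.341, and 0.0257 in the fit to 6 arrays.

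The median change was 0.13 for 25 UDP-glycosyltransferases, -0.13 for 7 glutathione transferases, 0.35 for 6 WRKY factors, 0.30 for 17 ABC and MATE transporters and 0.18 for 34 genes of entry into the secretory pathway. It was -0.16 for 17 expansins and xyloglucan endotransglucosylases, -0.03 for 5 nuclear photosynthesis genes, 0.00 for 66 plastid-encoded genes and -0.09 for 5 small heat shock genes. None of these lists had a called member. The same held for the clock (3, median 0.29), tryptophan and camalexin (3, 0.37), cold and abscisic acid (3, -0.14), auxin (3, -0.01), amino acid breakdown in darkness (6, 0.16), chitinase and glucanase (2, 1.18), peroxidase (2, 0.14) and reference genes (3, 0.14).

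**Figure D2:**
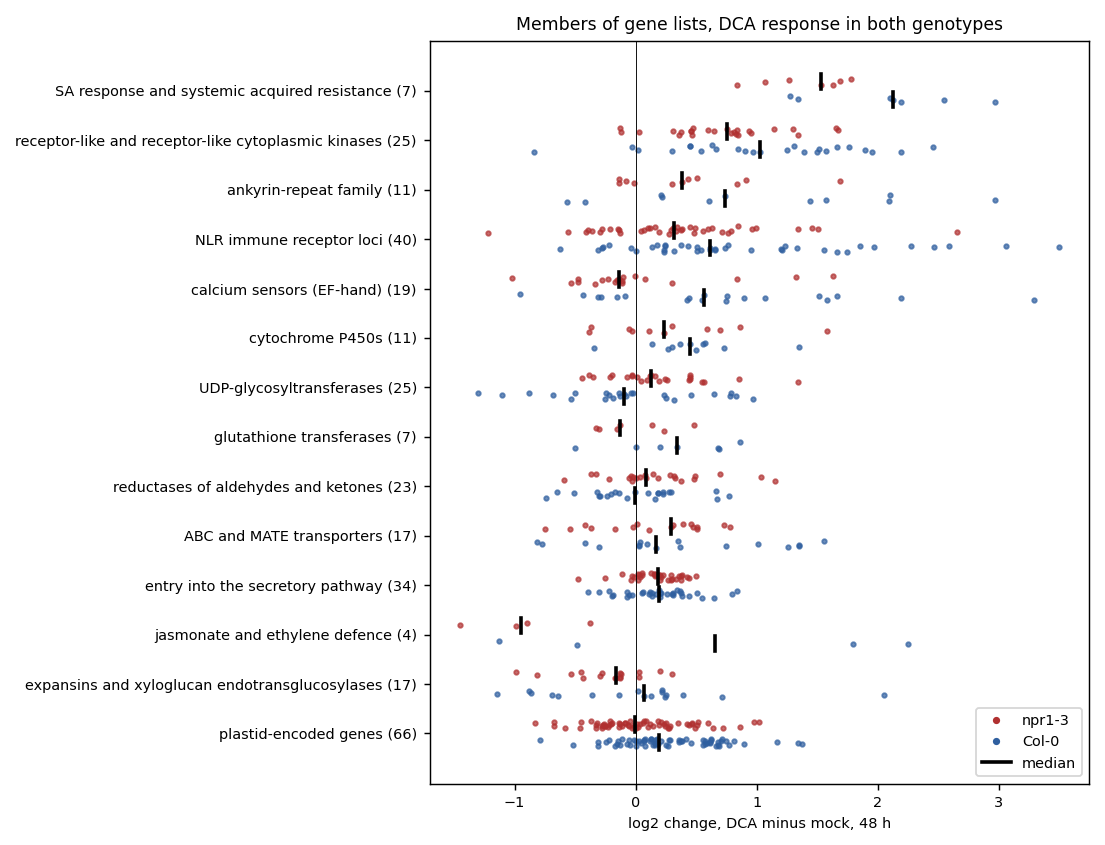
Log2 change with DCA at 48 h for each measured member of 14 gene lists in npr1-3 (red) and Col-0 (blue), with list sizes in parentheses and bars at the medians. The SA response genes all lie above 0 in both genotypes, and plastid-encoded genes in npr1-3 centre on 0.

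The response of npr1-3 was set against that of Col-0, which was measured on other arrays. In Col-0, 329 probe sets were called (2.41%), 270 higher (1.98%) and 59 lower (0.432%). All 43 probe sets that DCA raised in npr1-3 had a positive change in Col-0, with a median of 1.498, and 34 of them were called there, 79.1% of the 43 and 12.6% of the 270. Of the 17 named genes, 13 were called in Col-0. The other 4 were AT5G61820 (0.75, adjusted p 0.162), AT4G13180 (0.77, 0.0533), AT1G17430 (0.35, 0.407) and AT5G35570 (0.97, 0.267), and none of their interactions was called.

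Read from the Col-0 side, the 270 raised probe sets had a median change of 1.47 in Col-0 and 0.69 in npr1-3, a 1.61-fold rise. In npr1-3, 252 of the 270 had a positive change, 149 were higher at an unadjusted p under 0.05, and 34 were called. Of all 13648 probe sets, 60.8% had a positive change there, 790 were higher at an unadjusted p under 0.05, and 0.315% were called higher. The choice of the 270 by their rise in Col-0 favours the Col-0 value. The 59 that fell in Col-0 had a median of -0.33 in npr1-3, with 53 negative and 1 called lower. Of all 13648, 5352 were negative and 0.00733% were called lower. INA-raised probe sets were chosen by a contrast that holds no DCA array and no npr1-3 array: the 324 raised by INA in Col-0 at 48 h (2.37% of all) had a median change of 0.71 with DCA in npr1-3, with 311 positive and 35 called. The 212 that INA raised at 6 d (1.55% of all) had a median of 0.69, with 195 positive and 23 called. Over all probe sets this median was 0.08, with the 60.8% positive and 0.315% called higher given above.

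**Figure D3:**
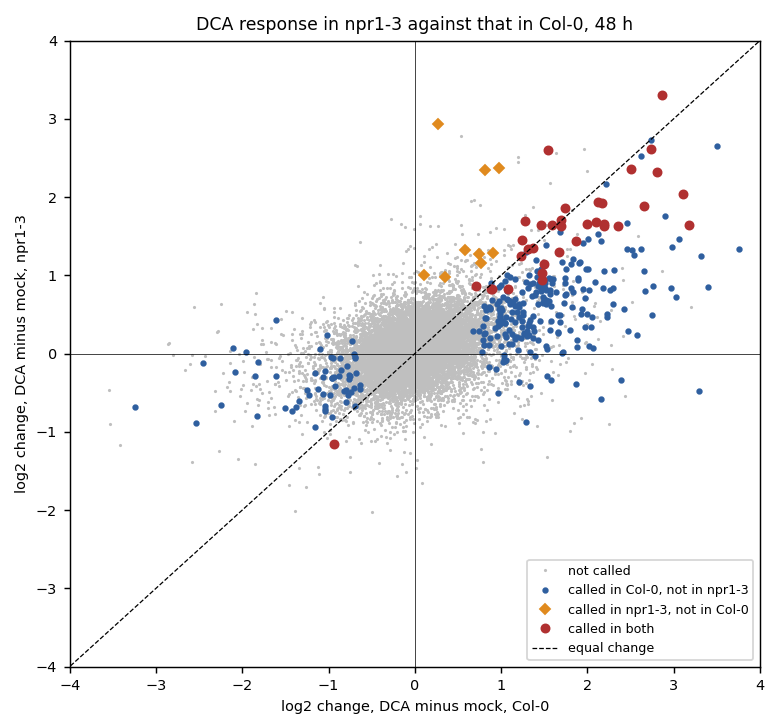
Log2 change with DCA at 48 h in npr1-3 (y) against Col-0 (x) for 13648 probe sets, coloured by where they were called, with a dashed line of equal change. Of the 34 rises called in both genotypes 11 lie above the line and 23 below, most of the others called in Col-0 lie between it and 0, and the 9 called higher in npr1-3 alone lie at smaller positive changes in Col-0.

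The interaction, the npr1-3 change minus the Col-0 change, tests the difference between genotypes directly. Limma called 1 of 13648 probe sets (0.00733%), the unnamed 248448_at, and 606 had an unadjusted p under 0.05. 248448_at went from 274, 277 and 341 to 120, 189 and 184 in npr1-3 (-0.88, adjusted p 0.181) and rose from 270, 502 and 294 to 872, 891 and 746 in Col-0 (1.29, limma adjusted p 0.00316). Its interaction was -2.16 (95% interval -2.83 to -1.49, limma adjusted p 0.0196).

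The strongest differences among named genes were just short of the threshold. AT5G12940, a leucine-rich repeat family gene, had 647, 910 and 886 with mock and 630, 485 and 607 with DCA in npr1-3, against 931, 821 and 728 with mock and 1550, 1425 and 1866 with DCA in Col-0. The means moved apart, and the interaction of -1.46 had an adjusted p of 0.0614. It was called without the filter on dim probe sets, with the filter at the 60th percentile, after quantile normalization and without the intensity trend (0.0421, 0.0351, 0.0396 and 0.0483), and without npr1-3 mock replicate 1 (0.0245). AT4G11000, an ankyrin-repeat gene, had 47.0, 25.5 and 48.3 with mock and 64.8, 87.2 and 59.0 with DCA in npr1-3, where Col-0 had 25.5 to 30.1 with mock and 208 to 239 with DCA. Its interaction was -2.13 (adjusted p 0.0854, and 0.0396 after quantile normalization, 0.0483 without the trend and 0.0218 without npr1-3 mock replicate 2).

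AT2G32030, an N-acetyltransferase family gene, changed by -0.29 in npr1-3 and rose by 1.54 in Col-0 (interaction -1.83, adjusted p 0.741, and 0.0387 without npr1-3 mock replicate 2). AT4G01700, a chitinase family gene, changed by 0.46 and rose by 2.05 (interaction -1.59, 0.772). In the other direction, AT2G17650 (an AMP-dependent synthetase), AT5G23340, AT3G19120 and AT1G55890 (a pentatricopeptide repeat gene) had interactions of 2.03, 1.32, 1.26 and 0.93. Their adjusted p-values lay between 0.889 and 0.961, so no difference between genotypes was established for these genes.

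Several of the largest Col-0 rises had no call in npr1-3, and their npr1-3 arrays disagreed. Limma called no interaction for any of them, so a difference between genotypes was not established. AT3G25610, a phospholipid-flipping P-type ATPase, had 13.1, 14.1 and 23.4 with mock and 9.77, 94.0 and 76.1 with DCA, while Col-0 went from 18.2 to 22.7 up to 212 to 337. AT5G52760, a heavy-metal-associated domain gene, had 43.0, 104 and 76.3 with mock and 35.4, 491 and 260 with DCA, against 1607 to 2162 in Col-0 with DCA. In both, DCA replicate 1 was as low as mock, and replicates 2 and 3 were higher than every mock array.

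AT3G25610 changed by 1.34 (adjusted p 0.597) and AT5G52760 by 1.24 (0.671) in npr1-3. Without DCA replicate 1 they were called, at 2.38 and 2.35 (limma adjusted p 0.0307 and 0.0322). AT3G01830, an EF-hand gene, had 46.7, 33.8 and 41.7 with mock and 16.2, 52.4 and 28.7 with DCA in npr1-3, and 605 to 977 with DCA in Col-0. Its groups overlap in npr1-3 (-0.48, adjusted p 0.915), and the interaction of -3.77 (95% interval -5.64 to -1.90) was not called (adjusted p 0.843).

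AT3G04210, an NLR-family locus, had 111, 199 and 182 with mock and 200, 1009 and 412 with DCA (1.46, adjusted p 0.687, block-adjusted 0.185). It was called with the block in the fit to 6 arrays and without replicate 1 of every group (limma adjusted p 0.0257 and 0.0356). AT5G58120, another one, had 2.64, 53.5 and 3.40 with mock and 30.9, 55.4 and 69.8 with DCA (2.65, 0.291). AT5G58120 was called without mock replicate 2 (4.04, limma adjusted p 0.0045). SAG101 stayed between 97.5 and 134 with mock and between 92.2 and 131 with DCA in npr1-3, and its Col-0 rise of 1.04 passed (limma adjusted p 0.0277). The SAG101 interaction of -1.11 was not called (limma adjusted p 0.961). WRKY6, a transcription factor of defence and senescence, changed by 0.10 (adjusted p 0.973). Of the Col-0 falls, AT1G62510 had 11240, 9760 and 15045 with mock and 10721, 3896 and 9569 with DCA in npr1-3 (-0.68, adjusted p 0.89), against -3.24 in Col-0. Its interaction was not called.

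**Figure D4:**
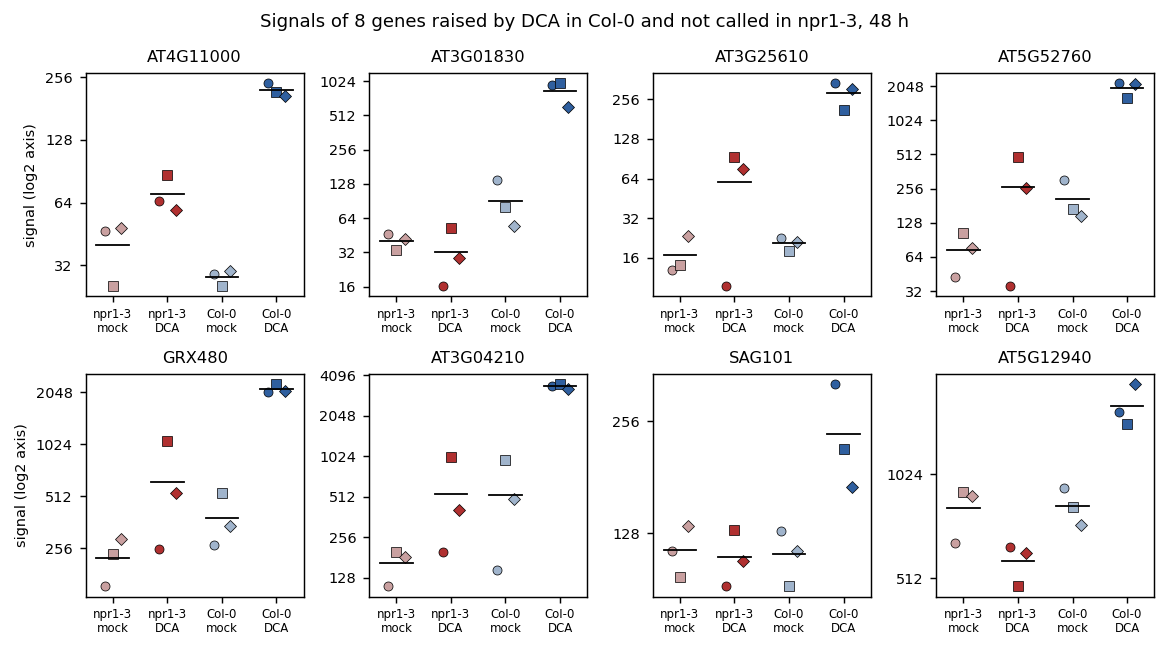
Signals of 8 genes that DCA raised in Col-0 and that were not called in npr1-3 (log2 axis); circles, squares and diamonds are replicates 1, 2 and 3, bars are arithmetic means. In AT3G25610, AT5G52760 and GRX480 the npr1-3 DCA array of replicate 1 is within or below the mock arrays, and SAG101 and AT5G12940 show no npr1-3 array with DCA above the highest mock array.

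Most transcripts that DCA raised in npr1-3 had lower mock signals in the mutant than in Col-0. In mock plants, 35 of the 43 were lower in npr1-3 than in Col-0, with a median of -0.64 against -0.02 over all probe sets, and 5 were called lower (0.0733% of all probe sets were called lower there, 0.0806% in either direction). A rise in npr1-3 favours a low npr1-3 mock value, because both use the same mock arrays. With DCA, a comparison that the same choice pushes upward, 17 of the 43 were still called lower in npr1-3 than in Col-0 (6.33% of all) and 4 higher (6.36%), with a median of -0.62. Among the 17 named genes 8 were called lower with DCA and 1 higher, AT4G13180.

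AT5G25440 is the clearest case, at 277, 314 and 280 in Col-0 with mock and 1408, 1384 and 1206 with DCA. Its npr1-3 arrays with DCA (246 to 316) spanned much the same range as Col-0 with mock, and the log2 difference, npr1-3 minus Col-0, was -1.69 with mock (limma adjusted p 0.0178) and -2.23 with DCA (0.000139). For AT5G47070 these differences were -1.1 with mock (limma adjusted p 0.0109) and -1.47 with DCA (7.74e-05). CaBP22, in contrast, had a mock difference of -0.34 that was not called (adjusted p 0.706).

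Other treatments of Col-0 moved the same transcripts to different degrees. All 43 had a positive change with INA at 48 h (50.9% of all probe sets did), with a median of 1.74 and 35 called higher (2.37% of all). At 6 d of INA the median was 1.15, with 40 positive (49.7% of all) and 23 called (1.55% of all were called higher, 1.83% in either direction). At 6 d of DCA the median was 0.24, with 33 positive and 0 called. Limma called 0 of all probe sets in that comparison, and 444 had an unadjusted p under 0.05. Of the 17 named genes, 15 were called with INA at 48 h, AT1G10340 with the largest change among the 12 in the signal plot (3.14, limma adjusted p 4.1e-05).

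Replicates 1 and 2 differed by over 2-fold in 18.8% of tested probe sets in npr1-3 with DCA, in 18.3% in npr1-3 with mock and in 19% in Col-0 with mock, against 0.901% in Col-0 with DCA. MCCA, an enzyme of leucine breakdown that is induced in darkness, had 7327, 672 and 6396 with mock and 9666, 664 and 6291 with DCA in npr1-3, against 5229, 796 and 3317 in Col-0 with mock and 649, 490 and 1073 with DCA. GI, a clock gene with a daily rhythm, had 1616, 343 and 668 with mock and 1658, 516 and 938 with DCA in npr1-3. Replicate 2 was lowest for both genes in both npr1-3 groups, and MCCA was lowest in replicate 2 of both Col-0 groups too. GI was not: in Col-0 it had 1016.5, 1342 and 947 with mock and 1209, 1089 and 1013 with DCA. The part of this difference in the DCA calls was not tested beyond the block and the fits without arrays.

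How many probe sets were called turned on single arrays. Without DCA replicates 1, 2 and 3 the count was 46, 11 and 9, and without mock replicates 1, 2 and 3 it was 76, 11 and 9. Of the 44, 4 were called in all 6 of these fits, AT5G47070 and 3 unnamed probe sets, and 3 in none of them. The call was lost in 3 of the fits for 9, in 4 for 12 and in 5 for 13. Without mock replicate 2, AT1G18900, AT1G03370, AT4G13180, AT1G17430, AT3G48640 and AT5G44820 were not called (limma adjusted p 0.0696, 0.0979, 0.101, 0.182, 0.217 and 0.0696). Without replicate 1 of every group 165 were called. A fit to the 6 arrays alone called 0 without the block (lowest adjusted p 0.682, 659 at an unadjusted p under 0.05) and 195 with it (1.43%), 117 higher (0.857%) and 78 lower (0.572%), 34 of them among the 44. Named rises not called in that blocked fit were AT5G39020, AT5G44820, AT4G17720, AT5G35570 and AT3G48640 (limma adjusted p 0.0693, 0.0705, 0.0908, 0.101 and 0.277).

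**Figure D5:**
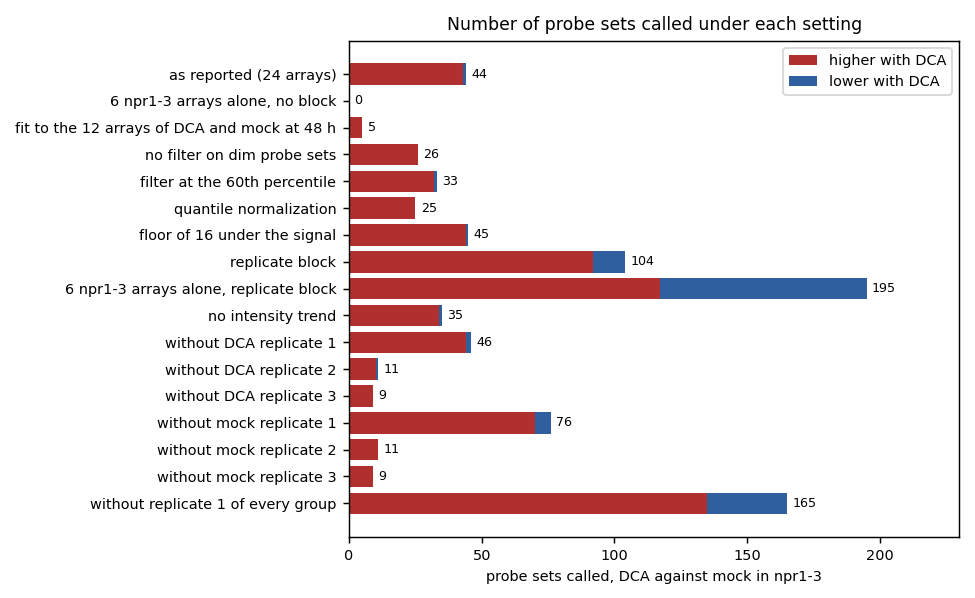
Number of probe sets called for DCA against mock in npr1-3 under each setting, split into those higher (red) and lower (blue) with DCA. The count runs from 0 in the fit to 6 arrays without a block to 195 in the same fit with the block, and most calls are rises.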

How the data were processed

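RNA from whole aerial tissue was hybridised to ATH1 arrays, 1 per sample. The deposited values are linear signal intensities, which the authors made with GCOS (named without a version in the submitters' processing notes). Leaving out 2% of values at either end, every array averaged 500.1, so none was rescaled. Detection calls were not used. Signals under 1 were set to 1 before log2 was taken. Without the 64 controls, 22746 probe sets remained, and the 13648 whose mean log2 value reached the 40th percentile (a signal of 74.2) were tested. One mean per group, over all 8 groups and 24 arrays, was estimated in limma 3.58.1 under R 4.3.3 (eBayes with an intensity trend, 16 residual degrees of freedom, median prior 4.44). Tests were two-sided, with Benjamini-Hochberg adjustment over all tested probe sets in each comparison and a threshold of 0.05. The procedure was tested on simulated data. Of the 24 columns, 0 were left unmapped.

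Same-numbered npr1-3 arrays deviated together from their group means in replicates 1 and 2 and only weakly in replicate 3 (correlations 0.67, 0.66 and 0.12). Deviations cancel within a group, so these correlations are not independent of each other. They show a difference between replicates 1 and 2 that both groups share, with correlations of -0.66 and -0.63 between unlike numbers. The numbers pair replicates 1 and 2 in that sense, while pairing of replicate 3 was not shown. Pairing was read from the same arrays that the block was fitted to. Values with the replicate block are given beside the results. In Col-0 the correlations were -0.10, 0.19 and 0.13. The block is fitted to all 24 arrays unless stated.

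The platform annotation gives 1 gene for 13513 of the 22746 probe sets, of which 13436 matched RefSeq (assembly TAIR10.1, for symbols), several for 503 and no entry for 8730. Of those tested, the numbers are 7334, 272 and 6042. Where probe sets share a gene, the brightest stands for it. Named are the 12 largest changes in each direction among called genes whose groups do not overlap and whose higher group mean exceeds the median signal of 131.9, filled up by lowest p-value where fewer than 6 fell or 4 differed between genotypes, the largest changes called in Col-0, and members of gene lists. The lists of ribosomal, mitochondrion-encoded and lipid-transfer genes had 0 measured members, and of the marker lists only those in the text had any. The comparison, genes and lists were chosen with earlier results of these data known, and 8 family lists were written once the annotation had been read. No promoter or other sequence was used here. Plots were made in matplotlib 3.10.9 (Python 3.11.15).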

Additional observations from a re-analysis of the deposited data

Results flagged for a closer look

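The unnamed probe set 248448_at stood out because its response to DCA differed between the genotypes. The DCA change in npr1-3 minus that in Col-0 was -2.16 (log2, limma adjusted p 0.0196). With the replicate block limma gave an adjusted p of 0.0107, but that fit also pairs Col-0 arrays, which their numbers do not pair. The call was lost in the fit to the 12 arrays of DCA and mock at 48 h and without replicate 1 of every group. In npr1-3 the 3 arrays with DCA were below the 3 with mock, and in Col-0 the 3 with DCA were above the 3 with mock. With INA it changed by 0.32 in Col-0 at 48 h (adjusted p 0.71). Its gene is not named in the annotation used, and the cause of the difference was not tested.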

How the results depend on the processing

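The count of 44 for DCA against mock in npr1-3 became 104 with the replicate block, which pairs these arrays by number. Pairing of replicate 3 was not shown. The count was 195 with the block in a fit to the 6 npr1-3 arrays alone (an alternative chosen after seeing the data), and 165 without replicate 1 of every group. It was 0 in the fit to the arrays compared alone, 5 in the fit to the 12 arrays of DCA and mock at 48 h, 26 without the filter and 25 after quantile normalization. It was 33 with the filter at the 60th percentile, 45 with a floor of 16 and 35 without the intensity trend. Without single arrays it ranged from 9 to 76. The 329 for Col-0 became 171 in the 12-array fit, 1285 with the block, whose numbers do not pair the Col-0 arrays, and 107 to 715 without single arrays. The interaction count of 1 became 0 in the fits to the arrays compared alone and to 12 arrays and without replicate 1, 2 without the filter and with the 60th percentile, 3 after quantile normalization and without the trend, and 0 to 4 without single arrays. For npr1-3 against Col-0, the count in mock plants was 11, and 0 in the fit to those arrays alone, 4 with 12 arrays, 18 after quantile normalization, 1852 without replicate 1 and 1 to 289 without single arrays. In DCA-treated plants it was 1732, 2650 in the fit to those arrays alone, 1987 without replicate 1 and 709 to 1621 without single arrays. Among the 158 gene results recomputed under these settings, no called change took the opposite sign. Several settings, such as the block and the 12-array fit, leave the estimated change itself unaltered, so this is no test of robustness. The causes were not tested. Dim mock signals limit the changes of AT5G35570, AT3G48640, AT5G58120 and AT3G25610.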

Other observations

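Beyond the members of the response itself, COR15A, a cold-induced chloroplast protein gene, differed between the genotypes with either treatment. Its signals were 766, 627 and 895 with mock and 741, 256 and 766 with DCA in npr1-3, against 2224, 9344 and 6184 and 4803, 4734 and 4153 in Col-0. All npr1-3 arrays were below all Col-0 arrays, with log2 differences of -2.74 with mock and -3.11 with DCA (limma adjusted p 0.0178 and 0.000539), and DCA changed it in neither genotype at the threshold (-0.52 in npr1-3, adjusted p 0.854, and -0.15 in Col-0, 0.912). EXLA1, an expansin-like gene of cell wall loosening, had 1674, 920 and 1617 with mock and 1710, 943 and 1173 with DCA in npr1-3, against 2266, 10107 and 8270 and 9682, 10002 and 8626 in Col-0. Its log2 difference, npr1-3 minus Col-0, was -2.93 with DCA (limma adjusted p 0.000712), while the mock difference of -2.08 was not called (0.0836).

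AT3G25910, one of the genes that only the block called, changed by 0.75 in npr1-3, with paired differences of 0.87, 0.64 and 0.75 (block-adjusted p 0.0366), and by -0.25 in Col-0. The interaction was not called.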
